A study of Danio rerio with 9 samples.

Results

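Contacts called in the zebrafish caudal fin at 4 days post amputation (dpa), and neither in uninjured fins nor at 1 dpa, numbered 3118. They were taken from a list of 26988 called chromatin contacts at 4 dpa, of which 21367 spanned at most 200 kb between the starts of their anchor bins. They were chosen by the presence and position of called pairs in the 3 lists: a contact was kept if it spanned at most 200 kb and no pair called at 0 dpa or at 1 dpa on the same chromosome had both anchor starts within 10000 bp of its own. The members made up 14.6% of the 4 dpa contacts of this span. Of the others, 14467 had a counterpart at both earlier times, 2889 at 0 dpa only and 893 at 1 dpa only.

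The fins came from wild type fish of the outbred Ekkwill strain, 6 to 8 months old, and were collected freshly amputated (0 dpa) or at 1 or 4 dpa after removal of 50% of the fin length. Each of 3 pools per time point held 10 fins, so the contacts are averages over all cells of the fin pieces. HiCAR, the assay used, tags open chromatin with a Tn5 transposase and ligates the tag to DNA that lies close by in the nucleus and was cut with the enzyme CviQI, so that each read pair joins an accessible site to a neighbour in space. The deposited lists give 1 value per contact and time, with no value per pool, so no test between times and no error between pools could be had. The time point of each list was read from the list's name.

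A zebrafish fin regrows after amputation. Epidermal cells first close the wound, and a blastema, a mound of dividing progenitor cells, then forms beneath them and rebuilds bone rays, connective tissue and vessels. Distal enhancers that open after injury are known to drive genes in this tissue, and a loop that brings an enhancer near a promoter is one way in which such an element can reach its gene. Which genes lie at the contacts below is not analysed here, because the lists use the build danRer11 and the annotation at hand is of another assembly.

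All called contacts in the 3 lists had a count of at least 12, were at least 2 times the expected count of the authors' background model and had a false discovery rate (FDR) under 0.01. For singletons, contacts that stand alone without called neighbours, the FDR did not exceed 0.0001. A contact below these limits has no value in a list, so the absence of a member at 0 or 1 dpa means that it was not called there. It does not mean that its count was 0. The lists held 28421, 18712 and 26988 contacts at 0, 1 and 4 dpa, and their sequencing depth is unknown. Cell type makeup could not be checked in contact data either, and its part in any difference between times was not tested.

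The members spanned 20 to 200 kb, with a median of 70 kb. The shortest possible contacts, at 20 kb, were the most frequent class, with 916 members or 29.4%. Another 484 spanned 30 to 50 kb, 682 spanned 60 to 100 kb, 600 spanned 110 to 150 kb and 436 spanned 160 to 200 kb. Contacts with a counterpart at both earlier times had the same median of 70 kb, but 12.9% of them spanned 20 kb. No pair shorter than 20 kb was called in any list. Fewer neighbouring bin pairs could therefore hold a counterpart at 20 kb than at longer spans, which can itself raise the members' share there.

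The share of contacts called at a single time depended on span in a different way in each list. At 4 dpa it was 24.2% at 20 kb, 9.98% at 30 to 50 kb, 11.4% at 60 to 100 kb, 14.6% at 110 to 150 kb and 16.6% at 160 to 200 kb. The lowest share was thus at 30 to 50 kb, and beyond that span it was higher in each longer class. Contacts called in uninjured fins alone were chosen in the same way and numbered 4368, or 17.9% of the 0 dpa contacts up to 200 kb. Their share was 37.1% at 20 kb and lower in each longer class, down to 6.76% at 160 to 200 kb. Contacts called at 1 dpa alone numbered 1065, or 6.86% of that list, with 15.8% at 20 kb and between 4.19% and 5.46% at longer spans. The expected count changed with span too. Among pairs called in the same bins at 4 and 0 dpa, the median ratio of 4 dpa to 0 dpa expected counts was 1.28 at 20 kb and 1.16 at 160 to 200 kb, and that of observed counts was 1.12 and 1.06. The part of this in the dependence on span was not tested. Nor was that of the rule, which had fewer places to find a counterpart at 20 kb, because no shorter pair was called.

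**Figure D1:**
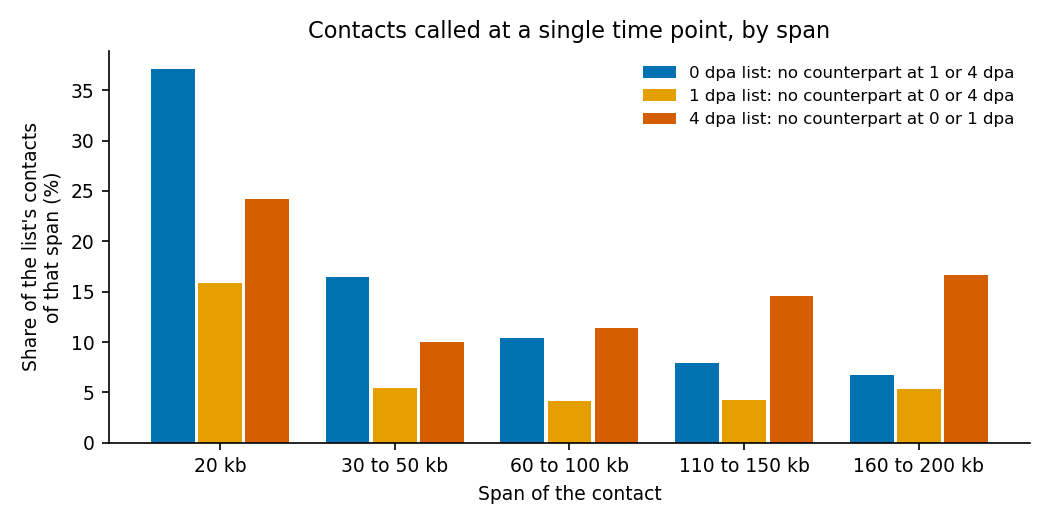
Share of the contacts of each list, in percent, that had no counterpart at the other 2 times, by span class, with bars in the order 0, 1 and 4 dpa. Both the 0 dpa and the 4 dpa bars are highest at 20 kb, at 37.1% and 24.2%. At 30 to 50 kb they stand at 16.4% and 9.98%, and at 160 to 200 kb at 6.76% and 16.6%. At 20 kb the rule has fewer places to find a counterpart, because no shorter pair was called.

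Most members were contacts of modest strength. Their median count was 28, against a median of 33 for the 4 dpa contacts with counterparts at both earlier times. The ratio of observed to expected counts had a median of 3.19 in the members (middle 50% from 2.64 to 3.94) and 3.66 in the contacts with counterparts (2.93 to 4.79). These values come from the list that chose the members and are given as a description. The strongest members were fewer: 205 (6.57%) were at least 5 times the expected count, against 3175 (21.9%) of the contacts with counterparts, and 120 (3.85%) had an FDR of at most 1e-08, against 4689 (32.4%). Sets missing from 1 or both of the other lists lay nearer to the members. The median ratio was 2.96 in contacts called at 0 dpa alone, 3.23 in those called at 1 dpa alone, 3.06 in 4 dpa contacts with a counterpart at 0 dpa only and 3.44 in those with one at 1 dpa only. At least 5 times the expected count was reached by 4.17%, 7.04%, 7.48% and 12.1% of these sets in the same order. Span was not matched here: 51.1% of contacts called at 0 dpa alone and 43.8% of those called at 1 dpa alone spanned 20 kb. Within every span class both of these sets had a higher median ratio than the members, each in its own list. The medians were 2.77 and 2.92 against 2.57 at 20 kb, and 4.65 and 4.60 against 4.35 at 160 to 200 kb. These 2 sets also had lower median expected counts, at 13.8 and 12.5 against 17.7 at 20 kb. At 160 to 200 kb these were 3.62 and 3.63 against 3.93. The ratio needed for a call is higher where fewer counts are expected, so no difference in strength is read from these medians. The order of members and contacts with counterparts at both times held within each span class. At 20 kb the median ratio was 2.57 in members and 2.75 in contacts with counterparts, and at 160 to 200 kb it was 4.35 and 4.93. The middle 50% of both sets overlapped in every class.

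**Figure D2:**
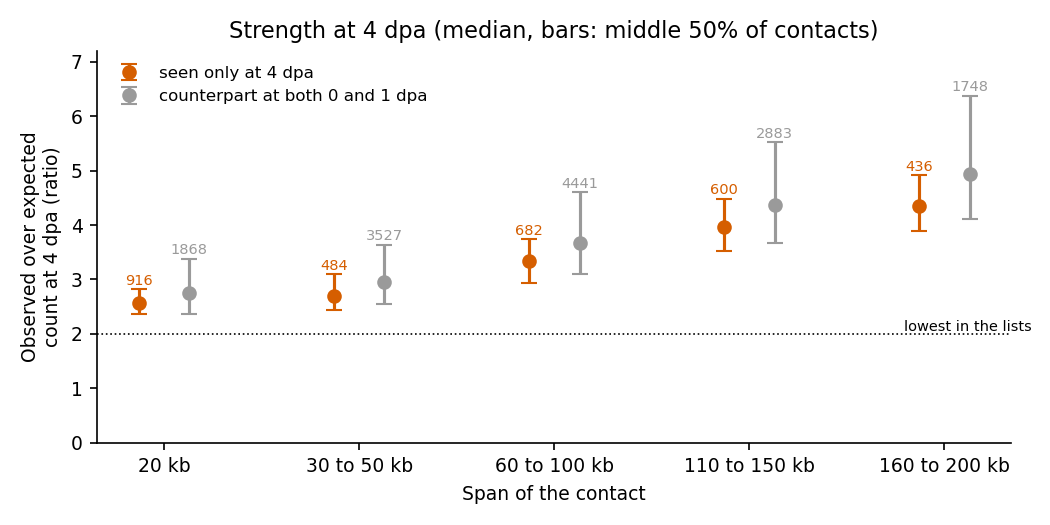
Observed over expected count at 4 dpa (a ratio) by span class for contacts seen only at 4 dpa and contacts with counterparts at both 0 and 1 dpa. Points are medians, bars hold the middle 50% of contacts and numbers above them count the contacts. The members' median lies below that of the other set in all classes, from 2.57 against 2.75 at 20 kb to 4.35 against 4.93 at 160 to 200 kb.

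Many members lay close to the lowest count at which a singleton was called, a stricter limit than that of the whole list. This was measured for members alone, so it is not set against other contacts. For each member, the lowest count at which a singleton was called was found among singletons whose expected count was within 5% of its own. At 4 dpa the median member had 1.03 times this count. It was below it for 1243 members (39.9%), and at least 1.25 times as high for 196 (6.29%) and 1.5 times for 21 (0.674%). No singleton member could fall below it, because each was itself among the singletons searched. Against singletons of the 0 dpa list the same 3 numbers of members were 1238, 196 and 21. At a like expected count, the singleton limit was thus close to the same in both lists. The expected counts of pairs called in the same bins differed between these lists, as given above.

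The distance to the nearest called pair shows how far the members lay outside the counterpart limit. It was measured in bins of 10 kb as the larger of the shifts of both anchors. Of the members, 798 (25.6%) were just inside the rule, with a pair called at 0 or 1 dpa exactly 2 bins away. They had a median count of 26 and a median ratio of 3.21. The 3733 contacts of the 4 dpa list just outside it, whose nearest called pair was 1 bin away, had a median count of 24 and a median ratio of 3.32. A further 814 members had a called pair 3 to 5 bins away, 737 had one 6 to 10 bins away, and for 769 (24.7%) it was over 10 bins away. Over 10 bins from any pair of the other lists lay 20.2% of contacts called at 0 dpa alone and 17.9% of those called at 1 dpa alone. The median distance was 5 bins in members and 4 in each of these sets, but the lists searched differ in length. At the span limit, 91 members spanned 200 kb with a median ratio of 4.58, and 68 contacts without counterpart spanned 210 kb with 4.29.

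The anchor bins of the members were looked up among the anchors of the earlier lists. This measure was not used to choose the members, which were matched as pairs. At least 1 anchor bin was also an anchor at 0 dpa for 1652 members (53%), made up of 481 (15.4%) with both anchors in use and 1171 (37.6%) with one. At 1 dpa, whose list is shorter, 1370 members (43.9%) had an anchor in use, 273 of them (8.76%) with both. Both anchors were in use at both earlier times for 201 members (6.45%), which were joined to each other in the 4 dpa list alone. Neither anchor was in use at either time for 1333 members (42.8%). These spanned a median of 30 kb with a median ratio of 2.96. Members with at least 1 anchor in use at 0 dpa and at least 1, not always the same one, at 1 dpa numbered 1237 (39.7%). They spanned a median of 90 kb with a median ratio of 3.44. Since the ratio of members was lower at shorter spans, strength is not compared between these groups. The counts over both earlier times were not computed for other sets, so no trait of the members is read from them.

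Other sets that lack a counterpart in the list searched give the background for the shares at 0 dpa and at 1 dpa taken singly. An anchor was in use at 0 dpa for 53% of the members, below the 580 of 893 (64.9%) among 4 dpa contacts with a counterpart at 1 dpa only. An anchor was in use at 1 dpa for 43.9% of the members, below the 1550 of 2889 (53.7%) among those with a counterpart at 0 dpa only. Of the contacts called in uninjured fins alone, 2277 (52.1%) had an anchor in use at 4 dpa and 1951 (44.7%) had one at 1 dpa. Of the 4 dpa contacts with counterparts at both earlier times, 99.4% had an anchor in use at 0 dpa, but there the matching of pairs brings the anchors with it. Of those called at 1 dpa alone, 54.9% had an anchor in use at 0 dpa and 55.1% had one at 4 dpa. Span was not matched between these sets. The median was 70 kb in members, 20 kb in contacts called at 0 dpa alone and 30 kb in those called at 1 dpa alone. With a span limit of 100000 bp, the members' shares were 46.6% at 0 dpa and 37.7% at 1 dpa. The nearness of the shares is therefore not read as a likeness between the sets.

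**Figure D3:**
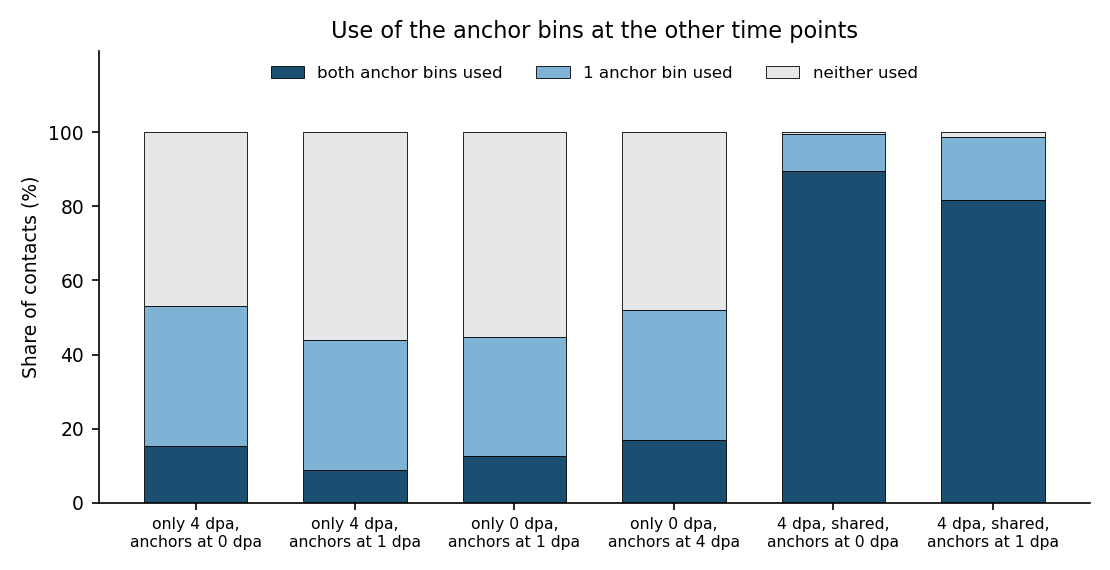
Share of contacts, in percent, with both, 1 or neither anchor bin used as an anchor at another time, for contacts seen only at 4 dpa, contacts seen only at 0 dpa, and 4 dpa contacts shared with both 0 and 1 dpa. Neither anchor was in use at 0 dpa for 47% of the contacts seen only at 4 dpa, and neither was in use at 4 dpa for 47.9% of those seen only at 0 dpa. Span was not matched between these sets.

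For members with an anchor in use at 0 dpa, the member partner was placed against the 0 dpa partners of that anchor, of any span. In 924 of 1652 (55.9%), an anchor had a called partner at 0 dpa in the same direction and at least as far away. It was enough if this held for 1 of both anchors. Members of 20 kb, the shortest span called, could not lie farther out than a partner on the same side. Both points favour this class, so no trait of the members is read from its share. In 398 (24.1%) the member partner lay farther out than any 0 dpa partner on that side, and in 330 (20%) it lay on a side with no 0 dpa partner. Against the 1 dpa list these shares were 57.1%, 24.4% and 18.5%. The contacts called in uninjured fins alone gave 70.8%, 9.49% and 19.7% against the 4 dpa list, and 51.1% of them spanned only 20 kb. Of the 481 members with both anchors in use at 0 dpa, 246 (51.1%) joined bins that had a common partner at 0 dpa. This share was higher for the contacts called in uninjured fins alone. Of their 738 with both anchors in use at 4 dpa, 491 (66.5%) joined bins with a common partner at 4 dpa. As a whole, the contacts called in uninjured fins alone had a median span of 20 kb, against 70 kb in members. Span was not matched, so nothing further is read from this difference.

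Members were also placed relative to whole earlier contacts of up to 200 kb. At 0 dpa, 910 members (29.2%) lay inside a called pair and 1023 (32.8%) enclosed one. For 4 dpa contacts with counterparts at both times these shares were 75.7% and 78.1%, counting pairs other than the identical one. Those contacts have a called pair within 1 bin by definition, so the 2 sets cannot be compared on this measure.

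The members used 5200 anchor bins, and 4329 of these (83.3%) held a single member contact. At 3293 bins (63.3%) no contact had been called at 0 or 1 dpa, and 3114 of these had no other contact at 4 dpa either. These shares were not computed for the bins of other sets. The rule leaves out pairs near an earlier called pair, which can itself raise them, so no trait of the members is read from them. At the 1720 bins in use at 0 dpa, the number of 4 dpa contacts that were not members was lower than the number at 0 dpa in 742 (43.1%), equal in 532 (30.9%) and higher in 446 (25.9%). Those bins were picked for a contact at 0 dpa and the members were taken out at 4 dpa alone, both of which favour a lower number at 4 dpa, so no direction is read from these counts. Together they had 4006 contact ends at 0 dpa, 2561 at 1 dpa and 5742 at 4 dpa, of which 2133 were those of the members. An anchor with 10 or more partners at 4 dpa was held by 87 members (2.79%), against 5.94% of all 4 dpa contacts up to 200 kb. The rule leaves out contacts with an earlier called pair nearby, which can itself lower this share. No trait of the members is therefore read from it.

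Contacts called in the same bins at all times allow a comparison of strength at the members' anchors. There were 8795 such pairs up to 200 kb, and 1204 of them shared an anchor bin with a member. In these, the ratio of observed over expected counts at 4 dpa to that at 0 dpa had a median of 0.913, against 0.873 in the 7591 pairs with no such bin. It was at least 1.5-fold higher at 4 dpa in 37 (3.07%), against 85 (1.12%) of the pairs with no such bin and 1.39% of all. It was at least 1.5-fold lower at 4 dpa in 115 (9.55%), against 946 (12.5%) and 12.1% of all. The middle 50% of ratios, 0.775 to 1.06 and 0.747 to 1.01, overlapped widely. At 1 dpa over 0 dpa, the medians were 0.949 at the members' anchors and 0.933 elsewhere. The members' anchor bins were picked for a contact called at 4 dpa and not earlier, in these same lists. That choice can favour higher ratios at 4 dpa, so no change in strength is read from these values. Pairs at 1 anchor are not independent, and no test over pools was possible.

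The authors' clusters, groups of neighbouring called pairs, show how members lay together. Members fell in 2161 clusters. Of these, 1851 held members alone, with 2703 members or 86.7%, and 310 also held other contacts. The rule leaves out pairs beside an earlier called pair, which can itself raise the share in clusters of members alone. That share was 45% with identical bins required and 92.5% with anchors within 20000 bp counted. It was not computed for the other sets, so no trait of the members is read from it. The clusters of members alone were small: 1162 were singletons, 560 had 2 pairs, 103 had 3 and 26 had more, up to 6. Among members, 37.3% were singletons, 60.7% belonged to clusters that the authors labelled sharp peaks and 2.05% to broad peaks. The contacts with counterparts at both times had 7.84%, 64.1% and 28.1% in these classes. The contacts called at 0 dpa alone had 37.7%, 59.5% and 2.86%, close to the members, and 53.2% of those called at 1 dpa alone were singletons. In 430 of the 560 clusters of 2 pairs (76.8%) both pairs shared an anchor bin, as did 84.5% of 1473 clusters of 2 pairs without members and up to 200 kb. Among clusters of 3 or more pairs the order was the other way, with 35 of 129 (27.1%) on a single anchor bin, against 288 of 2091 (13.8%) without members. Of these 129 clusters, 103 had only 3 pairs and none had over 6. Cluster size was not matched between these sets, so the shares cannot be compared directly. In the 310 mixed clusters, which held 1674 pairs and 415 members, new pairs were called beside pairs already called at 0 or 1 dpa or beside pairs over 200 kb. In 236 of them there was a single member.

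The strongest member by the naming rule, on chromosome 10 between 5230001–5240000 and 5400001–5410000, was of this second kind. It spanned 170 kb and had 35 counts against 3.30 expected, a ratio of 10.6 (95% Poisson interval 7.39 to 14.8, for counting error only). Singletons of like expected count were called from 16 counts upward in the 4 dpa list. The cluster held 10 pairs, of which the other 5, from left anchors between 5250001 and 5280000 to right anchors between 5390001 and 5410000, had counterparts at both 0 and 1 dpa. The strongest of these other 5 had 33 counts and a ratio of 9.03 at 4 dpa. The 5 members lay beside them, with left anchors farther out at 5230001–5250000 and ratios from 3.68 to 10.6. The left anchor had no called partner at 0 or 1 dpa and 2 at 4 dpa, and the right anchor had 4, 5 and 7 at 0, 1 and 4 dpa.

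The other 5 strong members all joined bins with no called partner at 0 or 1 dpa. Their expected counts were low, from 2.27 to 3.77, against a median of 8.49 in all members. On chromosome 5, the pair at 5720001–5730000 and 5920001–5930000 had 21 counts and a ratio of 9.23 (5.71 to 14.1). Its nearest called pair at an earlier time was 40 bins away. On chromosome 1, the pair at 1640001–1650000 and 1770001–1780000 had 20 counts and a ratio of 8.37 (5.12 to 12.9). These belonged to clusters of 2 members each, and the next 3 were singletons. On chromosome 3, the pair at 11880001–11890000 and 11910001–11920000 spanned 30 kb and had 23 counts, a ratio of 8.18 (5.19 to 12.3). Its count and its expected count of 2.81 were both below the medians of members spanning 30 to 50 kb, 34 and 12.6. On chromosome 8, bins 49440001–49450000 and 49560001–49570000 were joined by 29 counts, a ratio of 7.70 (5.16 to 11.1). On chromosome 25, bins 5060001–5070000 and 5240001–5250000 were joined by 20 counts, a ratio of 7.53 (4.60 to 11.6). The intervals of these 6 overlap, so their order is not settled by the counts.

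Of the 4 clusters with the most members, the largest lay on chromosome 8, where 7 of 18 pairs were members. Its 11 other pairs, all with a counterpart at 0 dpa and 9 with one at 1 dpa, joined left anchors from 29950001 to 30000000 to right anchors from 30100001 to 30140000. The members flanked them, 2 with left anchors farther out at 29930001–29950000 and 5 with left anchors farther in at 30000001–30020000. They had 18 to 29 counts and ratios from 2.79 to 4.84. On chromosome 2, 5 of 18 pairs were members, with ratios from 2.70 to 3.56, and the 13 others had counterparts at both earlier times. The bin 25310001–25320000 carried 4 of these members, with right anchors running from 25390001 to 25430000, next to its kept partners from 25430001 onward. On chromosome 7, a cluster of 6 pairs between 16920001 and 17000000 held members alone, with 21 to 48 counts and ratios from 2.35 to 4.07. Its nearest earlier pair, measured from the member with the lowest FDR, was 10 bins away. The cluster on chromosome 10 described above was the last of the 4.

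A few bins carried several members. The bin 33150001–33160000 of chromosome 10 had the most, 6, and 8, 4 and 19 called partners of any span at 0, 1 and 4 dpa. All partners lay on its left. At 0 dpa they fell in 3 groups, from 240 to 260 kb, from 140 to 170 kb and at 100 kb away. At 4 dpa they ran from 300 to 50 kb away. The members lay at 200, 190, 120, 80, 60 and 50 kb, 3 of them nearer to the bin than any 0 dpa partner. The members had 17, 21, 27, 32, 35 and 38 counts in this order, and ratios between 2.44 and 4.07. The strongest partner, 250 kb away, was called at each time with ratios of 12.9, 14.2 and 11.8 at 0, 1 and 4 dpa.

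**Figure D4:**
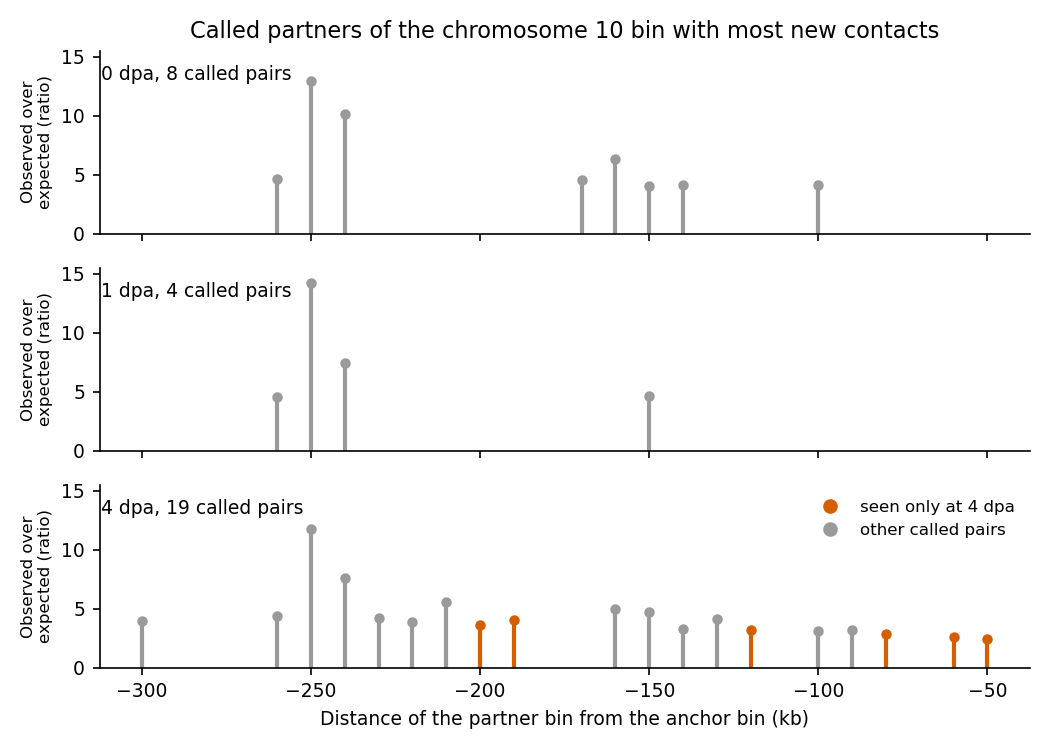
Observed over expected count (a ratio) of each called partner of the chromosome 10 bin at 33150001–33160000, by distance of the partner from the bin in kb, at 0, 1 and 4 dpa. Contacts seen only at 4 dpa are coloured. The grey ones at 4 dpa have a counterpart or span over 200 kb. The bin has 8, 4 and 19 partners, and the 6 coloured ones reach ratios of 2.44 to 4.07, below the partner at 250 kb (11.8).

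At 3 other bins the members were nearly all there was. The bin 16920001–16930000 of chromosome 7 had no called partner at 0 or 1 dpa and 5 at 4 dpa, all members, 40 to 170 kb to its right, with ratios from 2.52 to 4.78. The bin 46870001–46880000 of chromosome 14 likewise had 0, 0 and 5 partners, all on its left. Of these, 3 lay 180 to 200 kb away and 2 lay 20 and 30 kb away. The contact at 190 kb was the strongest of them, with 22 counts and a ratio of 7.51. The bin 20320001–20330000 of chromosome 4 had 0, 1 and 6 partners, of which 5 were members, 70 to 130 kb to its right and with ratios from 2.75 to 3.86. The last bin by the naming rule, 21740001–21750000 of chromosome 2, had 4, 4 and 7 partners, with members on both sides. It was 1 of 24 bins with 4 members and was named for its position.

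Members were spread over all 25 chromosomes. Their share of the 4 dpa contacts up to 200 kb was lowest on chromosome 22 (84 of 901, 9.32%) and highest on chromosome 9 (134 of 709, 18.9%). The share called at 0 dpa alone was also lowest on chromosome 22, at 11.1%, and was 20.6% on chromosome 9. For contacts called at 1 dpa alone these shares were 5.77% and 8.49%. In windows of 1 Mb, 1003 held at least 1 member, 267 held exactly 1 and 20 held 10 or more.

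The window with the most members was 30000001–31000000 of chromosome 8, with 19 members among 47 contacts up to 200 kb. It held 36 contacts at 0 dpa and 16 at 1 dpa, and 8 of those at 0 dpa were called at that time alone. Besides the 7 members of the cluster described above, 6 members in 2 clusters joined bins from 30150001–30180000 on the left to bins from 30290001–30360000 on the right. These 6 had 18 to 21 counts and ratios from 2.97 to 4.86. Of their anchors, 3 had been in use at 0 dpa and none at 1 dpa. Another 4 members, with 24 to 30 counts, joined bins between 30620001 and 30670000 to the bins 30710001–30730000.

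**Figure D5:**
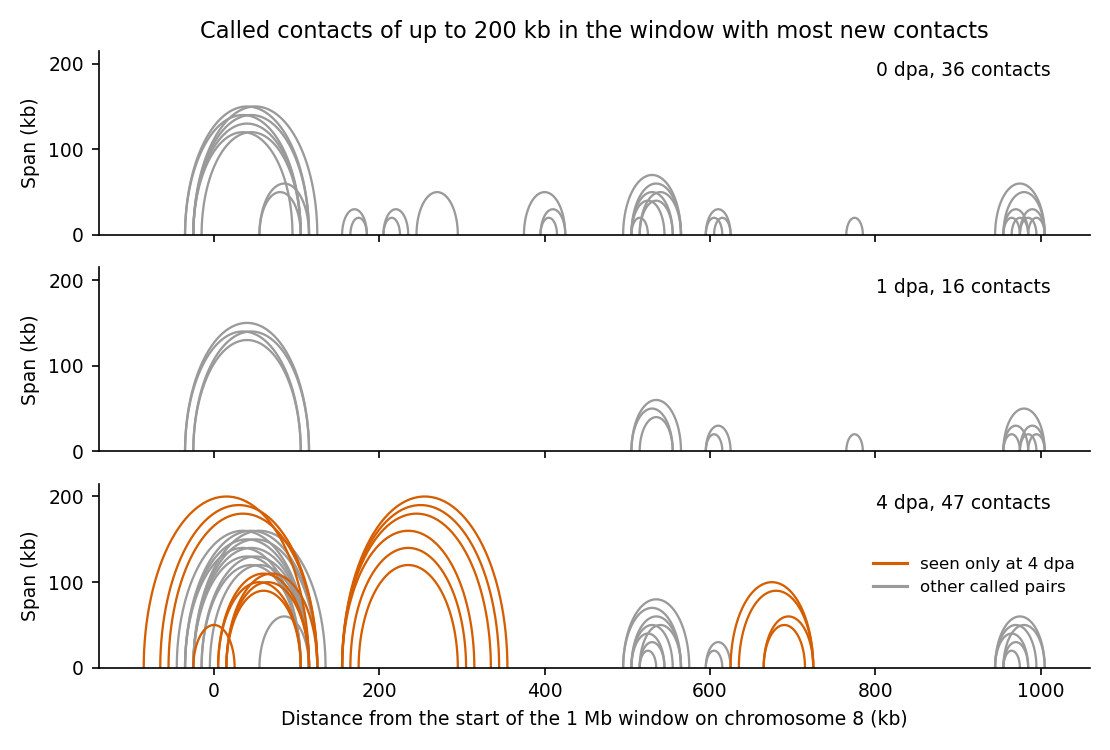
Called contacts of up to 200 kb in the window at 30000001–31000000 of chromosome 8 at 0, 1 and 4 dpa, drawn as arcs between anchor centres, with arc height equal to the span in kb and positions in kb from the start of the window. The window holds 36, 16 and 47 contacts at 0, 1 and 4 dpa. The 19 coloured arcs, seen only at 4 dpa, form a group beside the kept contacts on the left and further groups to the right of it.

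The next window, 39000001–40000000 of chromosome 7, had 15 members and 19, 15 and 35 contacts up to 200 kb at 0, 1 and 4 dpa. A block of 5 members joined 39090001–39120000 to 39170001–39190000, with 27 to 47 counts and ratios from 2.71 to 4.50, at bins without any called contact at 0 dpa, 1 of which had a single partner at 1 dpa. Further along, 4 members shared the right anchor 39970001–39980000, which had 5 partners at 0 dpa and 6 at 1 dpa, and reached inward to left anchors from 39830001 to 39870000 that had none. The window at 9000001–10000000 of chromosome 4 had 12 members, with 27, 25 and 38 contacts, and tied in number with windows on chromosomes 9, 13 and 23. Its members had ratios from 2 to 3.64 and spanned 20 to 100 kb. Members spanned 50 to 200 kb in the chromosome 8 window and 20 to 160 kb in the chromosome 7 window. Since the ratio of members was lower at shorter spans, strength is not compared between the windows.

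Members that lay over 50 bins from the nearest pair called at 0 or 1 dpa numbered 12 (0.385%). This share was not computed for the other sets. Of the 4 farthest, 3 lay on chromosome 1 near 4100001–4370000 and spanned 20 kb. The pair at 4340001–4350000 and 4360001–4370000 was 88 bins from an earlier pair and had 29 counts, a ratio of 2.56 (1.71 to 3.67). Its neighbour at 4330001–4340000 and 4350001–4360000, 87 bins away, had 21 counts and a ratio of 3.08 (1.91 to 4.71). These formed a cluster of 2 members, with FDRs of 0.00473 and 0.00467. Singletons of like expected count were called at 4 dpa from 32 and 24 counts upward, above the counts of these members. The pair at 4100001–4110000 and 4120001–4130000, 64 bins away, had 20 counts and a ratio of 5.95 (3.64 to 9.19). On chromosome 17, the pair at 6120001–6130000 and 6270001–6280000, 66 bins away, spanned 150 kb and had 20 counts, a ratio of 5.10 (3.12 to 7.88). The lower limits of these intervals lie below 2 times the expected count for 2 of the 4.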

How the data were processed

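HiCAR was run by the authors on 9 pools of fins, 3 per time point. They deposited 1 list of called pairs of 10 kb bins per time point. The submitters' processing notes name BWA as a tool and danRer11 as the build. Its version, the caller of the interactions, the background model and the merging of pools were not given in the sources used here. Per the file headers, each pair has a contact count, an expected count (used as a signal of the authors' background model), an FDR (a q-value) and a cluster with its size, summit mark and −log10 p. The counts at called pairs summed to 909221, 562191 and 861126 at 0, 1 and 4 dpa, but sequencing depth is unknown.

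Counterparts, distances, anchor use and ratios were computed with Python 3.11.15, pandas 2.3.3 and scipy 1.17.1. The matching was tested on simulated lists with planted members. Strength is count over expected count. Exact Poisson intervals cover counting error only. The members and the naming rule were chosen with earlier results of these data known. Named were the 6 highest ratios (count of at least 20, 1 per cluster), the 4 clusters with most members (ties by cluster p), the 4 farthest members, the 5 bins with most members and the 3 fullest 1 Mb windows. Ties among bins and windows went by position. The tie rules for clusters and windows were set after the values were seen. Gene lists, promoters, sequence features and motifs had been planned and are not analysed here, for want of a genome of that build. Positions are 1-based.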

Additional observations from a re-analysis of the deposited data

How the results depend on the processing

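The number of members was 3118 as reported, and ran from 1700 to 6851 over 10 alternatives. With identical bins required, there were 6851 members (32.1% of the 4 dpa contacts of the span), of which 74.9% had an anchor in use at 0 dpa, 65.6% had one at 1 dpa and 45% lay in clusters of members alone. With anchors within 20000 bp counted, there were 2320, with a share of 10.9%, and the other 3 values were 42.1%, 33.8% and 92.5%. An FDR of at most 0.0001 at 4 dpa left 1700, with 12.8%, 50.5%, 41.6% and 94.5%. In all lists it gave 2219, with 16.7%, 47.1%, 38.8% and 90.9%. A count of at least 20 gave 2451, with 13.4%, 50.8%, 42.7% and 89.6%. Without singletons there were 1956, with 10.8%, 55.7%, 46.8% and 78.8%. Summits alone gave 1904, with 24.4%, 50.2%, 40.5% and 97.2%. Lists of equal length gave 2163, with 15%, 47%, 44.9% and 92.4%. Limits of 100000 and 500000 bp on span gave 2082 and 4046 members, shares of 14.2% and 15.7%, anchors in use of 46.6% and 56.5% at 0 dpa and 37.7% and 47.3% at 1 dpa, and 87.2% and 86.9% in clusters of members alone. The median span ran from 30 to 100 kb, the median ratio from 2.80 to 3.60 and the share of singletons from 18.7% to 68.4%. In all, 64 of 79 values moved, that is, fell outside the binomial or order-statistic interval of the value as reported. For the number of members, the limit was a change of over 1.5 times. The cause was not tested. These intervals treat contacts as independent and measure no spread between pools, while 1675 members (53.7%) shared an anchor bin with another. Leaving out a replicate was not possible. No paired analysis was possible because the lists hold no values per pool. Sequencing depth is unknown, and 667 members (21.4%) had a count under 20, against 1713 (11.8%) of the contacts with counterparts at both times.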
